A study of Mus musculus with 2 samples.

Results

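The genes described here are 8 regulators of ferroptosis, chosen by name from the 32285 gene features counted in both libraries: Slc7a11, Slc3a2, Gpx4, Acsl4, Lpcat3, Aifm2, Por and Ncoa4. Each was counted as unique molecular identifiers (UMIs, 1 per captured transcript) in single cells of mouse liver tumors, by droplet sequencing of 3′ transcript ends. The study has 2 libraries, 1 per group, so its comparison is between 1 WT and 1 hKO library. WT are C57BL/6J mice without the deletion, and hKO are littermates that lost the fatty acid binding protein gene Fabp5 from hepatocytes through Alb-CRE-ER, a tamoxifen-activated Cre recombinase under the albumin promoter. Per the labels both genotypes were given tamoxifen by injection at 6 to 8 weeks of age (100 mg/kg, 5 times, 3 days apart, after a 16 h fast). Both then ate CD-HFD, the diet name in the labels, for 15 months. Each library pooled 2 to 3 hepatocellular carcinoma tumors, and how many mice stand behind a pool, and whether WT mice carry the Cre, was not stated in the sources used here.

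Ferroptosis is a form of cell death driven by iron-dependent peroxidation of polyunsaturated phospholipids in membranes. Slc7a11 (the light chain xCT) and Slc3a2 (the heavy chain) pair as the cystine importer called system xc-, which feeds glutathione synthesis, and Gpx4 uses glutathione to reduce lipid peroxides. Acsl4 and Lpcat3 load polyunsaturated fatty acids into phospholipids, Por passes electrons from NADPH to cytochrome P450 enzymes and can drive peroxidation, Aifm2 (also called FSP1) keeps coenzyme Q reduced apart from glutathione, and Ncoa4 brings ferritin to lysosomes so that its iron is released. The liver is rich in iron, glutathione and P450 enzymes, and hepatocytes can make cysteine from methionine as well as import cystine.

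Slc7a11 and Slc3a2 encode the light and heavy chain of the same importer, and their promoters are shown because the 2 genes had different patterns over the cell types. All 8 genes matched the RefSeq promoter table (build GRCm38.p6), in 13 windows of 300 bases that run from 250 bases before to 50 after a transcription start. Sequences are printed 5′ to 3′ on the gene's strand, and capitals mark TGATGCAA or its reverse complement TTGCATCA, the core of the amino acid response element that ATF4 binds. The Slc7a11 window is chr3:50443564-50443863 (minus strand) and the Slc3a2 window is chr19:8713848-8714147 (minus strand).
Slc7a11 promoter: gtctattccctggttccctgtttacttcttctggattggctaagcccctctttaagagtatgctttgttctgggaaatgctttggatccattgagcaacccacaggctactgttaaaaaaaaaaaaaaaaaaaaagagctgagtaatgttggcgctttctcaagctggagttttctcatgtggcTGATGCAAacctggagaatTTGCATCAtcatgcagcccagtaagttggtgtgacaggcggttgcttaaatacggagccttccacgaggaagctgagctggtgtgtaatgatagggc
Slc3a2 promoter: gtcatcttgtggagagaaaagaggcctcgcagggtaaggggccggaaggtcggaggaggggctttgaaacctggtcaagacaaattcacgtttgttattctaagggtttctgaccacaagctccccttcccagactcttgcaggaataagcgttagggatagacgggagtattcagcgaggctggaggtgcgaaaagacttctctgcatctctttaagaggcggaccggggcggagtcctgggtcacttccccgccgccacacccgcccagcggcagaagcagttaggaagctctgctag
The Slc7a11 window held 2 matches, TGATGCAA at bases -66 to -59 from the start and TTGCATCA at -47 to -40, and the Slc3a2 window held 0. Of the 13 windows of the 8 genes, 1 held this motif, against 0.895% of the 32851 windows in the table. The core of the antioxidant response element bound by NRF2, TGANNNNGC or its reverse complement GCNNNNTCA, had 3 matches in the Slc7a11 window and 0 in that of Slc3a2. That motif stood in 4 of the 13 windows (Slc7a11, Acsl4 and 2 of Ncoa4) and in 41.3% of all windows, and 1 of its matches in Slc7a11 overlapped the second match of the first motif. These are letter matches in the window only.

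Of 14289 WT and 18657 hKO barcodes, 9504 and 10402 were kept, with medians of 3836 and 3640 UMIs. The share of barcodes over the limit of 25% mitochondrial UMIs was 18.5% in WT and 36.8% in hKO. Doublet scores removed 349 WT and 1049 hKO cells. The libraries shared 73 barcodes, 29 of them among kept cells. Cells fell into 30 clusters, of which 27 were named from markers alone and 3 stayed unnamed, giving 14 classes. Ratios were formed for the 11 classes in which both libraries had 100 cells or more. Levels are counts per 1000000 UMIs of the class (CPM). Ranges in brackets are exact 95% intervals that cover counting error only: Poisson for levels, conditional binomial for ratios and Clopper-Pearson for shares. With 1 library per group no test was made, and a difference between the libraries cannot be told apart from one between mice, tumors or preparations. A gene was measured in a class at 50 CPM or more in a library, and counted as higher or lower in hKO where its log2 ratio was 1 or more, or -1 or less, and its interval excluded 0.

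The hepatocyte-like class, 353 WT and 1107 hKO cells, was made of different clusters in the 2 libraries. WT cells were mostly cluster 21 (329 cells, led by Fabp1, Rgn and Akr1c18), and hKO cells were cluster 9 (819 cells, led by Cyp2a5, Ugt2b5 and Mup20) and cluster 22 (287 cells, led by Car3, Gstp2 and Ubd). All 10 hepatocyte markers were higher in this class than in the other named classes, in both libraries. Median depth was 1297 UMIs in WT and 1507 in hKO, under the library medians, and the median mitochondrial share was 11.7% and 18.6%. The nuclear transcript Malat1 made up 0.138% and 0.116% of its UMIs, against 1.54% and 1.11% in neutrophil-like cells. Fabp5, the targeted gene, had 79 UMIs in WT (99.1 CPM) and 51 in hKO (13.7 CPM), a log2 ratio of -2.85 (-3.39 to -2.33). Which exons were deleted was not stated in the sources used here, so a 3′ count may still register a shortened transcript.

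**Figure D1:**
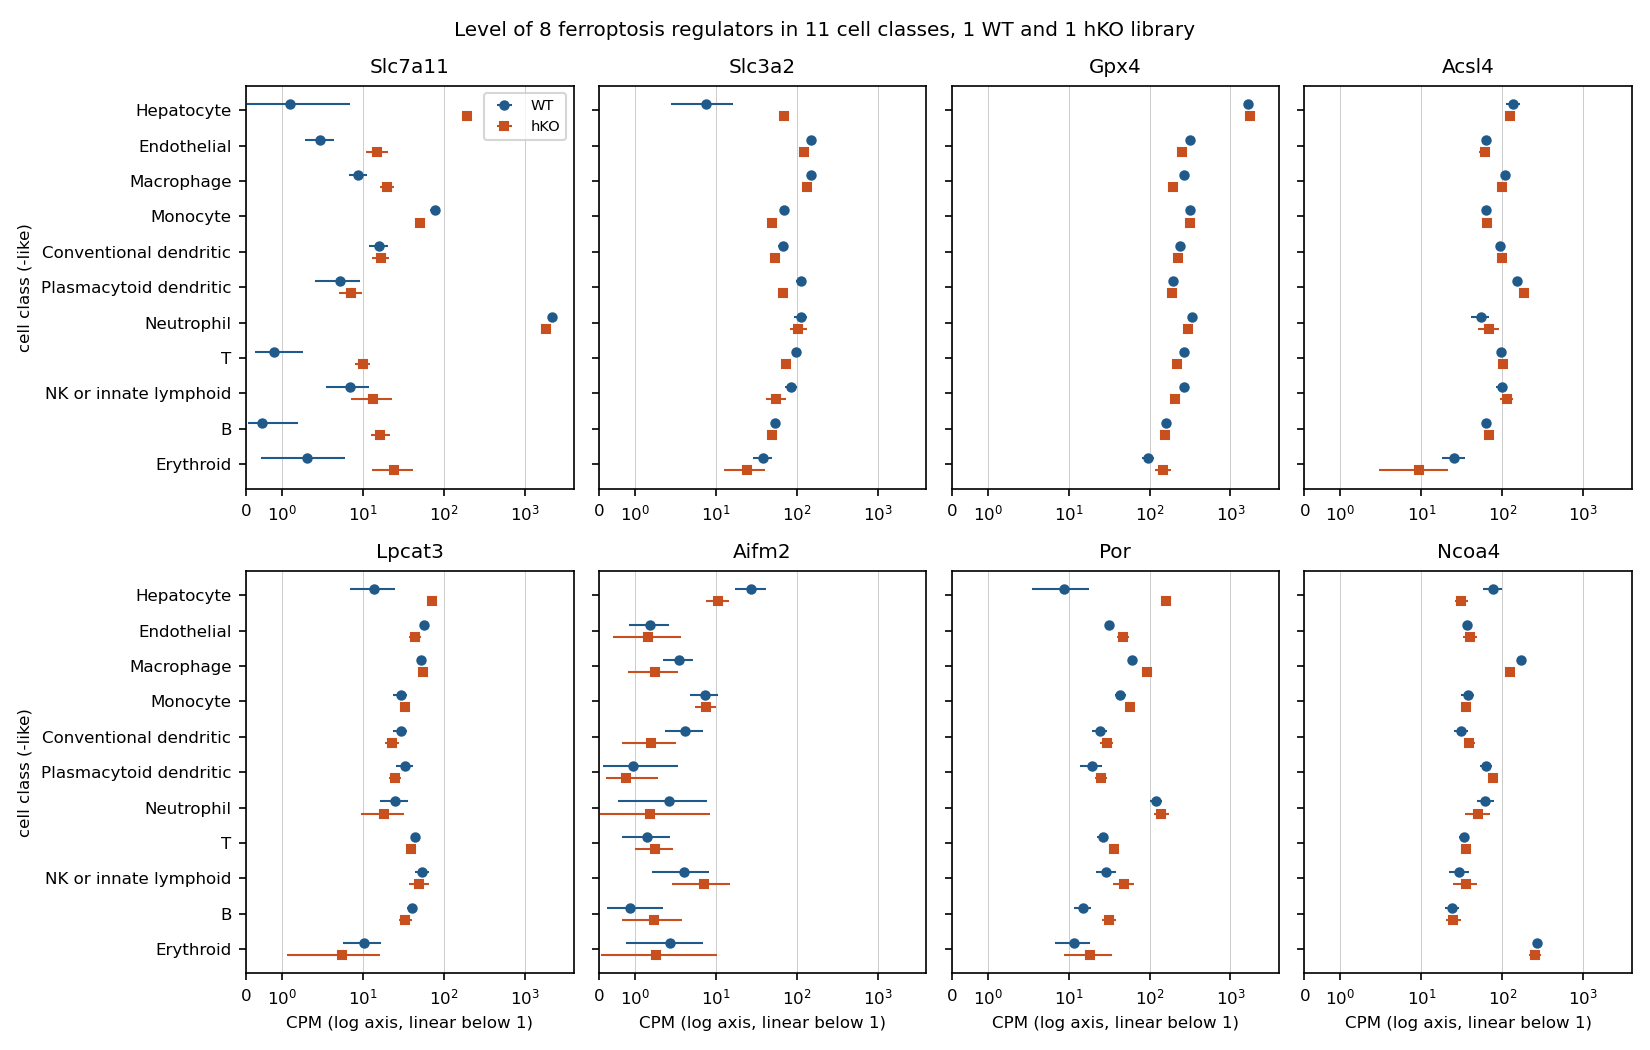
Level of each of the 8 genes (CPM, log axis, linear below 1) in the 11 compared classes, WT as blue circles and hKO as orange squares, with exact Poisson 95% intervals. Slc7a11 is far to the right in neutrophil-like cells in both libraries (2175 and 1816 CPM), and Gpx4 is highest in hepatocyte-like cells (1637 and 1733 CPM).

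Slc7a11, the transporter chain that sets cystine specificity, was most abundant in neutrophil-like cells among the 11 compared classes. There it had 2467 UMIs in WT (2175 CPM, 2090 to 2262) and 1193 in hKO (1816 CPM, 1714 to 1922), a log2 ratio of -0.26 (-0.36 to -0.16). A Slc7a11 UMI was seen in 80.2% of WT and 82.2% of hKO neutrophil-like cells, and in 70.5% and 68.0% once each cell was thinned to 1000 UMIs. All 8 neutrophil markers were highest in this class in both libraries. With the mitochondrial limit at 10% its ratio became -1.13. Hepatocyte-like cells of hKO came next at 192 CPM, then monocyte-like cells with 77.1 CPM for WT against 50.7 for hKO (log2 -0.61, -0.84 to -0.37). Conventional dendritic-like cells stood at 15.8 and 16.5 CPM. Within them the cluster led by Ccr7, Fscn1 and Ccl22, genes of migratory dendritic cells, had 100.4 CPM in WT (71.0 to 138) and 61.0 in hKO (42.9 to 84.0), so its intervals overlapped those of monocyte-like cells in each library. The remaining 7 classes lay between 0.434 and 8.74 CPM in WT and between 7.09 and 24.0 in hKO.

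In several of those low classes the hKO values lay at the level that hepatocyte RNA in the droplets would carry. Summed over 12 abundant hepatocyte genes such as Alb, Fabp1 and Ttr, hepatocyte transcripts made up 0.182% of the UMIs of T-like cells in WT and 0.355% in hKO. Scaled to the hepatocyte-like cells of the same library, that share would carry 10.0 CPM of Slc7a11 into hKO T-like cells, where 9.98 CPM was measured. In B-like cells 18.5 CPM would be carried and 16.5 was measured, and in erythroid-like cells 25.2 and 24.0. In WT the hepatocyte part in these 3 classes was 0.0278 to 0.0321 CPM, and 0.789, 0.434 and 2.05 CPM were measured. That part was scaled to the named WT class, which had 1 Slc7a11 UMI (1.25 CPM). An unnamed cluster described below, cluster 25, also held WT cells with hepatocyte markers. With it added, WT Slc7a11 stood at 58.6 CPM, so the WT hepatocyte part may be understated. Neutrophil RNA, scaled by S100a8 and S100a9, would carry 0.731, 0.841 and 1.04 CPM of Slc7a11 into the same 3 WT classes. In WT plasmacytoid dendritic-like cells it would carry 5.01 CPM, where 5.18 was measured. The WT values of T-like and B-like cells, 5 and 2 UMIs, lay at the level that neutrophil RNA would carry. In WT plasmacytoid dendritic-like cells the 11 UMIs came from 3 of 300 cells, with up to 9 in a cell. That value rests on few cells, and the source of these UMIs was not tested. The log2 ratios of Slc7a11 were 3.66 in T-like, 5.25 in B-like and 3.55 in erythroid-like cells, all under 50 CPM in both libraries and so not counted. The B-like class also differed in its clusters, with 1277 WT and 67 hKO cells in cluster 4 and 42 and 1210 in cluster 6, so its ratios set different clusters side by side. In hKO macrophage-like cells 8.40 CPM would be carried and 19.8 was measured (8.74 in WT), and in hKO monocyte-like cells 10.9 and 50.7. In conventional dendritic-like cells hepatocyte RNA would carry 8.20 CPM in hKO and 0.0151 in WT, and neutrophil RNA 6.72 and 0.528. Their near equal levels thus hold before subtraction only: with hepatocyte RNA subtracted the log2 ratio was -0.87 (-1.51 to -0.25). Of the 5 classes with a Slc7a11 ratio after that subtraction, 2 were higher and 3 lower in hKO.

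**Figure D2:**
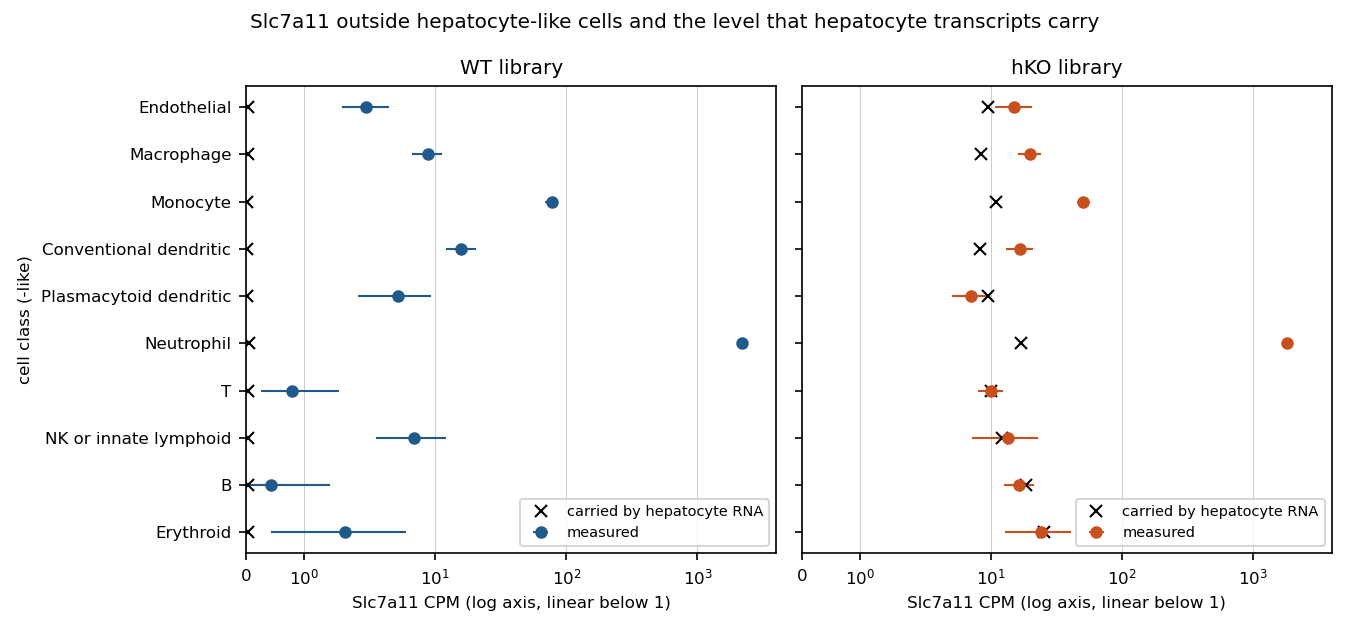
Slc7a11 level (CPM, log axis, linear below 1) in the 10 compared classes other than hepatocyte-like, per library, as circles with exact Poisson 95% intervals, and the level that hepatocyte transcripts would carry, as crosses. In hKO the cross lies within the interval in T-like, NK or innate lymphoid-like, B-like, erythroid-like and plasmacytoid dendritic-like cells, and far below the measured 1816 CPM in neutrophil-like cells.

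In hepatocyte-like cells Slc7a11 had 1 UMI in WT (1.25 CPM) and 716 in hKO (192 CPM, 179 to 207), a log2 ratio of 7.26 (4.78 to 12.57). A UMI was seen in 0.283% of WT cells (0.00717% to 1.57%) and 27.6% of hKO cells (24.9% to 30.3%). Thinned to 1000 UMIs, the shares were 0.448% and 16.7%, with 130 WT and 304 hKO cells too shallow to enter. T-like cells, taken as background, had a UMI in 0.347% of WT and 3.88% of hKO cells at median depths of 3744 and 3770 UMIs. Within hKO, cluster 9 had 273 CPM (248 to 300) with a UMI in 30.5% of cells, and cluster 22 had 131 CPM (116 to 147) with a UMI in 19.2% of cells. The UMIs were spread differently in the 2 clusters: the 10 cells with most Slc7a11 UMIs held 13.4% of them in cluster 9 and 55.6% in cluster 22, where 1 cell held 45. Neutrophil markers summed to 257 CPM in cluster 9, 271 in cluster 22 and 370 in WT cluster 21, with 1, 2 and 2 of 8 markers at 0, against 44798 CPM in WT and 50032 in hKO neutrophil-like cells.

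WT cells with hepatocyte markers and Slc7a11 were present outside the named class. Cluster 25 (197 WT and 31 hKO cells) stayed unnamed because it held both hepatocyte and cholangiocyte markers, and at a finer clustering it separated into 117 WT cells and a cholangiocyte-like group of 80 WT and 31 hKO cells. The 117 cells were deep, with a median of 21454 UMIs and 3.59% mitochondrial UMIs. They had 14745 CPM of Alb, 491 of the hepatocyte factor Hnf4a and 222 of the fetal and tumor marker Afp. Of the 8 cholangiocyte markers Epcam was low (0.709 CPM), but together they summed to 3978 CPM, with 1 of 8 at 0. That sum was 152 CPM in WT and 1080 in hKO hepatocyte-like cells, and 30983 in the 80 WT cholangiocyte-like cells. The 117 cells thus held markers of both types and stayed unnamed at the finer clustering too. They held 276 Slc7a11 UMIs, or 97.8 CPM (86.6 to 110.1), in 32 cells. The 10 cells with most Slc7a11 held 79.3% of these UMIs, and in those 10 cells the 8 neutrophil markers summed to 2 UMIs with 7 of the 8 at 0. The cholangiocyte-like group had 0 Slc7a11 UMIs in WT, which allows up to 3 UMIs over the group, and 2 in hKO. Fabp5 stood at 16.3 CPM in the 117 WT cells, near the 13.7 of the hKO hepatocyte-like class.

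**Figure D3:**
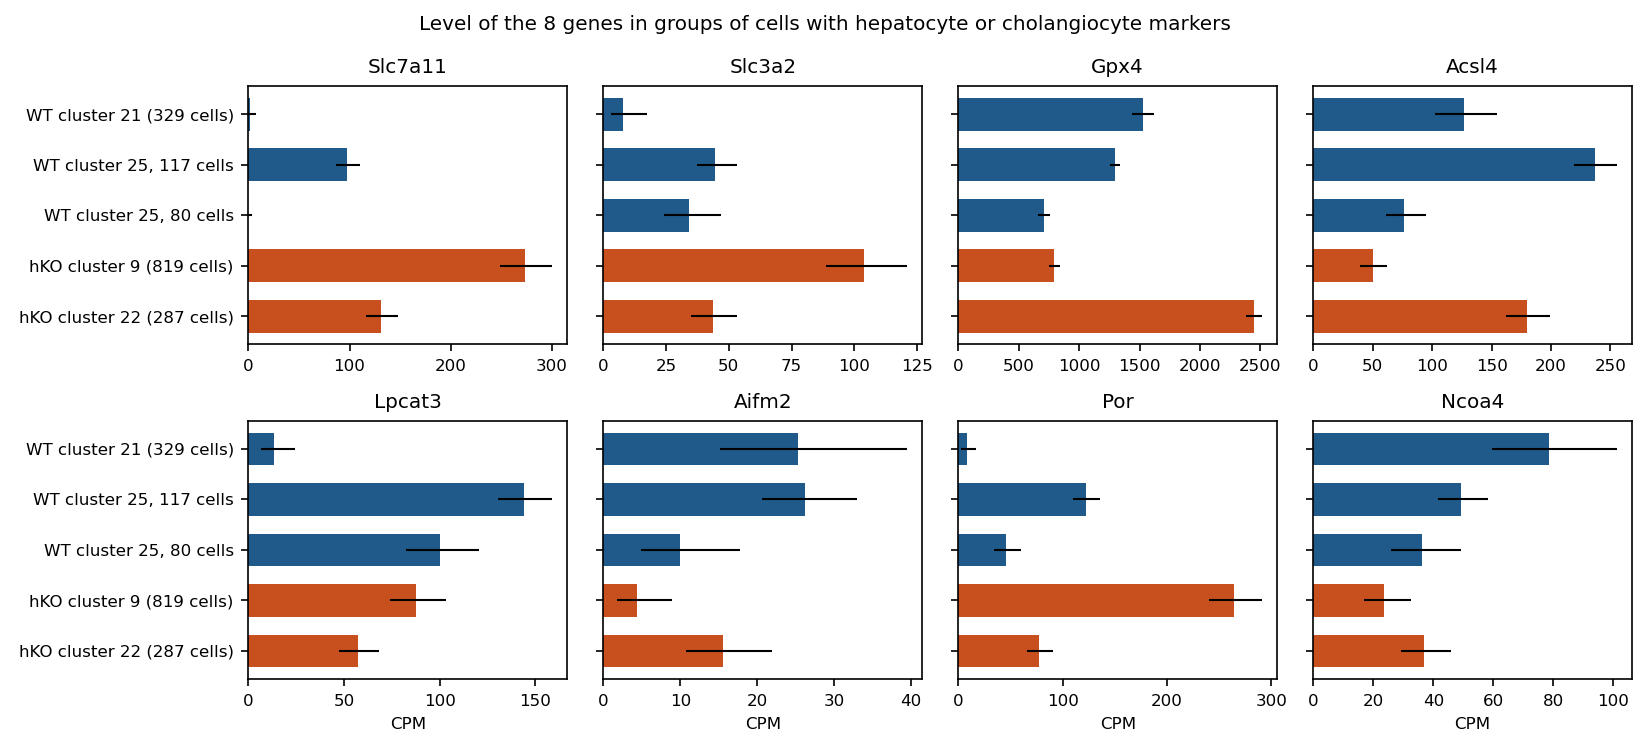
Level of each gene (CPM, linear axis from 0) in 5 groups of cells with hepatocyte or cholangiocyte markers, WT in blue and hKO in orange, with exact Poisson 95% intervals. Slc7a11 and Por are low in WT cluster 21 (1.33 and 7.98 CPM) but not in the 117 WT cells of cluster 25 (97.8 and 122 CPM).

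Counting across the class, 7 of the 8 genes were measured in hepatocyte-like cells, with 4 higher and 1 lower in hKO. This class differed widely between the libraries: 51.5% of its 3020 measured genes passed the same rule, 19.8% as higher and 31.8% as lower. The median log2 ratio of all measured genes was -0.52, and that of the 7 measured members 2.35. The 4 higher members reached 50 CPM in hKO only, and the 1 lower member in WT only. Aifm2 (-1.36) was under 50 CPM in both libraries and is not in the members' median. The members' count and median thus depend on the floor. Scaled by that all-gene median, 65.4% of the genes past the rule were higher in hKO, against 38.4% when scaled by total UMIs. Slc3a2, the heavy chain that anchors xCT and other amino acid transporters, had 6 UMIs in WT (7.53 CPM) and 259 in hKO (69.6 CPM), log2 3.21 (2.07 to 4.67). By cluster it was 7.98 CPM in WT cluster 21, 104 in hKO cluster 9, 43.5 in hKO cluster 22 and 44.7 in the 117 WT cells. Por, the P450 reductase, had 7 UMIs in WT (8.78 CPM) and 589 in hKO (158 CPM), log2 4.17 (3.12 to 5.49). It stood at 7.98 CPM in cluster 21, 265 in cluster 9, 77.6 in cluster 22 and 122 in the 117 WT cells, of which 84.6% had a Por UMI.

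Lpcat3, the acyltransferase that places polyunsaturated chains into phospholipids, had 11 UMIs in WT (13.8 CPM) and 262 in hKO (70.4 CPM), log2 2.35 (1.49 to 3.37). Its highest level among hepatocyte-marker cells was in WT, at 144 CPM (130 to 159) in the 117 cells, against 87.8 in hKO cluster 9, 57.3 in hKO cluster 22 and 13.3 in WT cluster 21. Ncoa4, the ferritin carrier, was the 1 member lower in hKO, with 61 UMIs in WT (76.5 CPM) and 116 in hKO (31.2 CPM), log2 -1.30 (-1.75 to -0.82). It read 78.5 CPM in WT cluster 21, 49.3 in the 117 WT cells, 36.9 in hKO cluster 22 and 23.7 in hKO cluster 9. Scaled by the median of all measured genes rather than by total UMIs, its ratio was -0.77 and no longer counted.

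Gpx4, the peroxidase at the centre of the pathway, had near equal levels in the class: 1305 UMIs in WT (1637 CPM, 1549 to 1728) and 6446 in hKO (1733 CPM, 1691 to 1775), log2 0.08. The 2 hKO clusters differed more from each other than the libraries did, with 795 CPM (752 to 840) in cluster 9 and 2445 CPM (2379 to 2513) in cluster 22. WT cluster 21 had 1526 CPM and the 117 WT cells 1300. Acsl4, the ligase for arachidonic and adrenic acid, showed the same order within hKO, with 49.8 CPM in cluster 9 and 180 in cluster 22. Over the class it had 135 CPM for WT against 124 for hKO (log2 -0.13, -0.44 to 0.18), and it was 126 in WT cluster 21 and 237 in the 117 WT cells (219 to 255). Without cluster 9 the Acsl4 ratio became 0.41. Aifm2 was low everywhere. It had 22 UMIs in WT hepatocyte-like cells (27.6 CPM) and 40 in hKO (10.8 CPM), its highest levels in any compared class of each library. The log2 ratio there was -1.36 (-2.15 to -0.54), not counted because both levels were under 50 CPM, as they were in every compared class.

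Adding cluster 25 to the hepatocyte-like class, which brings in the deep WT cells, left 1 member past the rule. Slc7a11 then had 277 UMIs in WT (58.6 CPM) and 718 in hKO (176 CPM), log2 1.58 (1.38 to 1.79), with 48.5% of 3986 measured genes past the rule, 9.71% as higher and 38.8% as lower. The ratios of Slc3a2 (0.87), Por (0.80) and Ncoa4 (-0.65) fell short of it, and that of Lpcat3 turned to -0.63 (-0.84 to -0.42). Gpx4 stood at 0.42 and Acsl4 at -0.57. The low WT values of Slc7a11, Por, Slc3a2 and Lpcat3 were those of cluster 21. The median depth of cluster 21 (1310 UMIs) was near that of hKO cluster 9 (1381) and far under that of the 117 WT cells, and its mitochondrial share (11.4%) lay between those of cluster 9 (19.8%) and the 117 cells (3.59%). The part of depth and mitochondrial share in the differences was not tested.

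**Figure D4:**
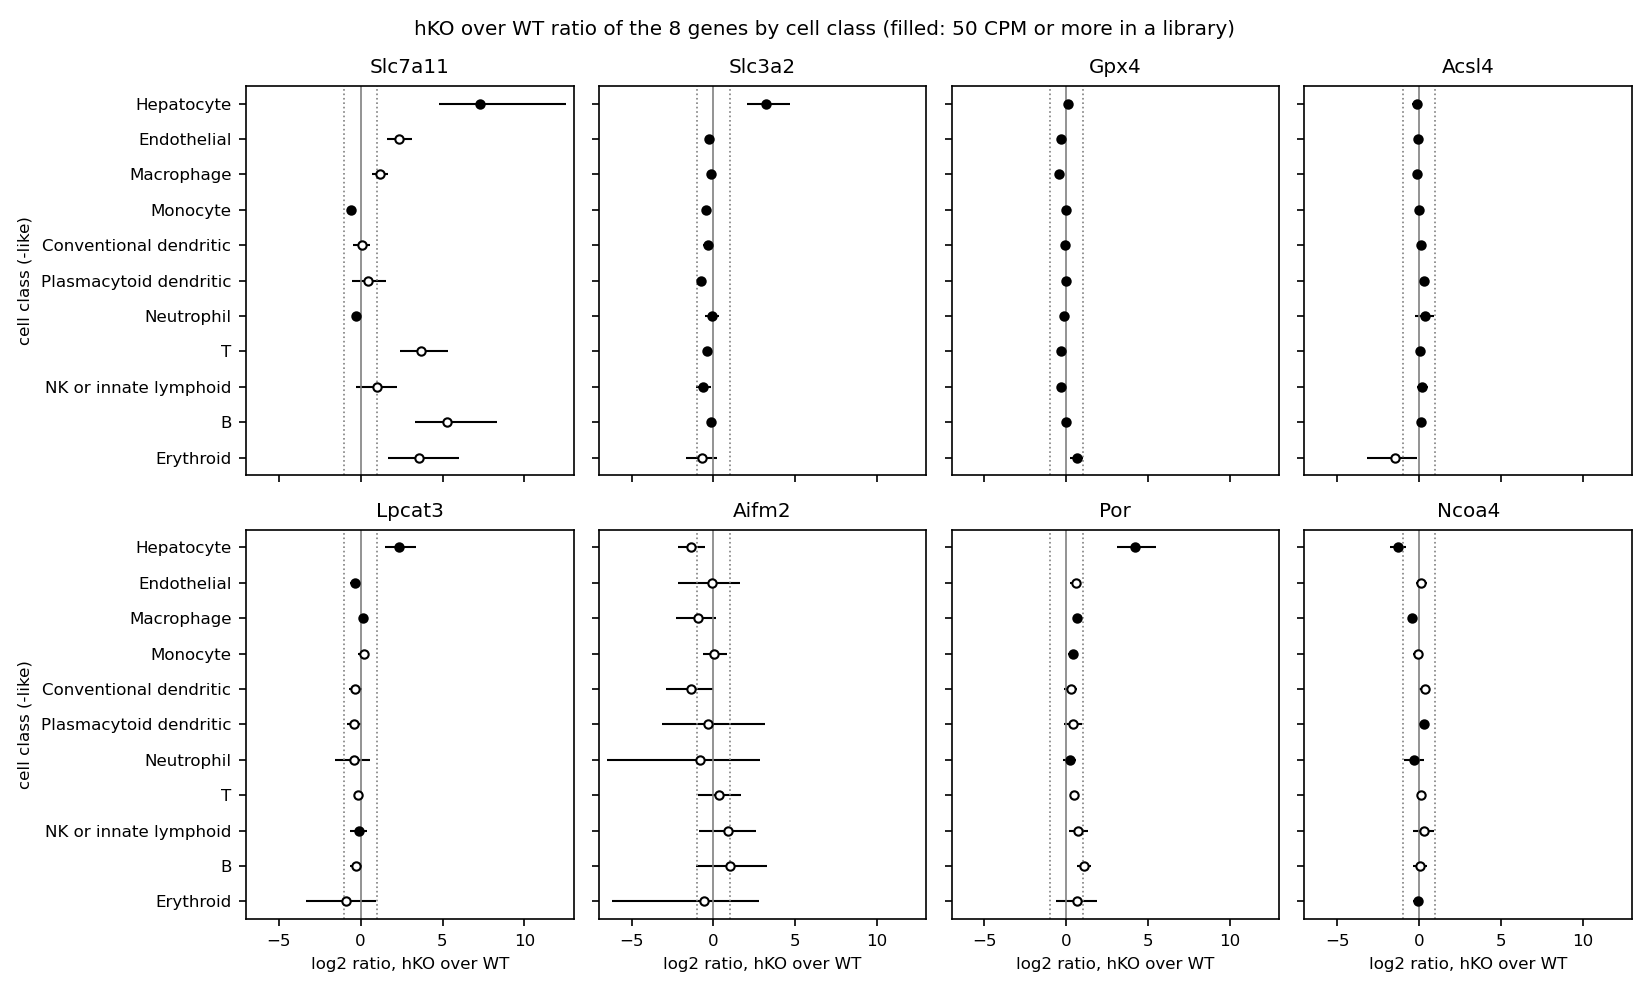
Log2 ratio of hKO over WT for each gene in 11 classes, with exact conditional binomial 95% intervals; filled points were at 50 CPM or more in a library, and dotted lines mark a ratio of 1 in size. Filled points beyond the dotted lines occur in hepatocyte-like cells only, for Slc7a11 (7.26), Slc3a2 (3.21), Lpcat3 (2.35), Por (4.17) and Ncoa4 (-1.30).

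Outside hepatocyte-like cells, 40 gene and class pairs were measured in 10 classes, with 0 past the rule, and their log2 ratios lay between -0.73 and 0.63. The share of all measured genes past the rule there was 4.04% in macrophage-like, 4.35% in monocyte-like, 4.5% in plasmacytoid dendritic-like, 4.67% in conventional dendritic-like, 4.96% in NK or innate lymphoid-like, 5.61% in B-like, 6.12% in both endothelial-like and T-like, 12.4% in neutrophil-like and 67.2% in erythroid-like cells. Within the 13 single clusters that held at least 100 cells of each library, 51 pairs were measured and 0 passed, where 3.42% to 67.2% of all measured genes did. By cluster those shares were 4.35% in cluster 1, 6.69% in 2, 3.42% in 3, 4.26% in 5, 4.5% in 7, 7.78% in 11, 12.4% in 12, 3.89% in 13, 5.18% in 14, 4.96% in 15, 67.2% in 16, 9.65% in 20 and 5.47% in 23. Differences smaller than the rule still ran one way for some members, on counting error alone. The share of all measured genes that ran one way, or whose interval excluded 0, was not computed. By class, the Slc3a2 ratio was above that of 2.94% (plasmacytoid dendritic-like) to 66.0% (erythroid-like) of measured genes. For Por these were 69.9% (neutrophil-like) to 95.7% (B-like), and for Gpx4 12.1% (macrophage-like) to 85.6% (erythroid-like).

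Slc3a2 was lower in hKO in all 10 of these classes (median log2 -0.37), with an interval below 0 in 7. The largest difference was in plasmacytoid dendritic-like cells, with 113 CPM for WT against 67.7 for hKO (log2 -0.73, -0.97 to -0.49). All-gene medians were below 0 in 9 of these 10 classes as well, from -0.09 to -1.17, and 0.05 in macrophage-like cells. Scaled by those medians, Slc3a2 was lower in 8 of 10 classes (median -0.20) and higher in B-like and erythroid-like cells. Its highest levels among the compared classes were in endothelial-like (149 and 123 CPM) and macrophage-like cells (149 and 133 CPM), whose intervals overlapped in each library, and its lowest were in erythroid-like cells (38.3 and 24.0 CPM) and WT hepatocyte-like cells. Plasma-like cells, with too few hKO cells for a ratio, had more Slc3a2 in WT, at 184 CPM (160 to 211) over 63 cells.

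Por was higher in hKO in all 10 classes (median log2 0.52), with an interval above 0 in 6. In macrophage-like cells it had 60.3 CPM for WT against 92.9 for hKO (log2 0.62, 0.43 to 0.82), and in B-like cells 15.0 and 31.5 CPM (log2 1.07, 0.62 to 1.53), under 50 CPM in both. It was higher in all 10 under median scaling too. Droplets of these classes held more hepatocyte RNA in hKO than in WT, as given for Slc7a11, and that RNA would carry 15.2 CPM of Por into hKO B-like cells against 0.225 in WT. With it subtracted, Por was higher in hKO in 7 of the 9 classes that kept enough UMIs for a ratio (over 3 in each library), with an interval above 0 in 2. These were macrophage-like (0.55, 0.35 to 0.75) and endothelial-like cells (0.36, 0.02 to 0.69). In B-like cells the ratio fell to 0.24 (-0.30 to 0.77), and in monocyte-like cells to 0.21 from 0.38. In erythroid-like cells no Por UMI was left in hKO. The WT part was scaled to the named WT class, which had 8.78 CPM of Por. With the unnamed cluster of hepatocyte and cholangiocyte markers added, WT Por stood at 85.2 CPM. The WT part may thus be understated, and the subtracted Por ratios were not recomputed with that cluster. Neutrophil-like cells had the highest Por of the 10 classes, at 121 CPM in WT and 140 in hKO, whose intervals overlapped.

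Gpx4 lay between 95.8 and 336 CPM in the 10 classes, against 1637 and 1733 in hepatocyte-like cells, and was lower in hKO in 9 of them with an interval below 0 in 4, but in 5 of 10 under median scaling. Hepatocyte RNA would carry 73.8 to 227 CPM of Gpx4 into these classes in hKO and 19.7 to 64.5 in WT. In hKO B-like cells 166 CPM would be carried and 157 was measured, and in hKO erythroid-like cells 227 and 148, so subtraction left nothing there and no ratio could be formed. In the other 8 classes the subtracted Gpx4 ratios lay between -0.36 and -1.17, all with intervals below 0. The lowest, in NK or innate lymphoid-like cells, passed the rule. These intervals do not cover the error of the subtracted part, and where that part is overstated in hKO the ratios are too low. In macrophage-like cells Gpx4 had 265 CPM for WT against 196 for hKO (log2 -0.43, -0.55 to -0.32) before subtraction and -0.90 after it. That class sets different clusters side by side, and within cluster 3 (580 WT and 795 hKO cells) the ratio before subtraction was -0.18 (-0.32 to -0.04). Among the compared classes Acsl4 was highest in plasmacytoid dendritic-like cells, at 152 CPM in WT (136 to 170) and 185 in hKO (174 to 197), followed by hepatocyte-like cells (135 and 124 CPM), and only the WT intervals of this pair overlapped. The 117 WT cells of cluster 25 stood above both. Macrophage-like, T-like, NK or innate lymphoid-like and conventional dendritic-like cells had 92.5 to 114 CPM of Acsl4. Lpcat3 in the 10 classes was highest in endothelial-like (57.0 and 44.2 CPM), NK or innate lymphoid-like (53.7 and 49.6 CPM) and macrophage-like cells (51.7 and 56.0 CPM), which overlapped in both libraries. The cholangiocyte-like group within cluster 25 had more, with 100.1 CPM in WT (82.4 to 121) and 92.5 in hKO (64.0 to 129).

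Ncoa4 had another distribution, highest in erythroid-like cells at 267 CPM in WT (241 to 295) and 255 in hKO (214 to 301), log2 -0.07. Under median scaling, which shifts this class by over 1, that ratio became 1.10 and that of Gpx4 there 1.80, both past the rule. Macrophage-like cells followed with 169 CPM for WT against 123 for hKO (log2 -0.46, -0.60 to -0.31). Within them Ncoa4 differed by cluster, with 247 CPM in WT and 276 in hKO in cluster 17 (317 and 54 cells), 124 in WT cells of cluster 3 and 144 in the 768 WT cells of cluster 8. Clusters 8, 17 and 3 made up the WT class and mainly cluster 3 the hKO class, so the class ratio sets different clusters side by side.

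The wider pathway was described with 9 further lists, given by their measured genes in hepatocyte-like cells beside the all-gene median of -0.52 and the 19.8% higher and 31.8% lower of all measured genes. Of 12 NRF2 targets measured, 7 were higher and 0 lower (median log2 1.65), led by the transporter Abcc4 (6.27 CPM for WT against 369 for hKO, log2 5.88), the peroxidase Gpx2 (5.53), the epoxide hydrolase Ephx1 (5.29) and the carbonyl reductase Cbr3 (4.14). By group of cells these genes did not form 1 pattern: Cbr3 was 3.19 CPM in the 117 WT cells, 11.97 in WT cluster 21, 248 in hKO cluster 9 and 628 in hKO cluster 22, while Ephx1 was 388, 16.0, 1160 and 238 CPM in that order. With cluster 25 added, 6 of 12 NRF2 targets were higher and 1 lower (median 1.03, all-gene median -0.74).

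Among 10 measured genes of glutathione supply, 2 were higher and 3 lower (median -0.04). Gclc, the catalytic subunit of the first step of glutathione synthesis, had 198 CPM for WT against 579 for hKO (log2 1.55), and Ggt1, which breaks down extracellular glutathione, had 1 WT UMI against 195 in hKO (log2 5.39, 2.89 to 10.70). The 3 lower genes were Cbs (-2.01) and Cth (-1.16), the enzymes that make cysteine from homocysteine, and the glutaminase Gls2 (-1.77). Cbs stood at 141 CPM in WT cluster 21, 54.2 in the 117 WT cells, 46.4 in hKO cluster 22 and 18.1 in hKO cluster 9. Gclc was highest in the 117 WT cells, at 915 CPM, against 748 and 356 in hKO clusters 22 and 9 and 153 in WT cluster 21. With cluster 25 added, 0 of 7 measured genes were higher and 1 was lower.

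Of 7 genes of iron supply and storage, 3 were higher and 1 lower (median 0.21). These were the iron importer Slc39a14 (log2 3.24), the iron hormone Hamp (2.65), the exporter Slc40a1 (1.87) and the iron chaperone Pcbp1 (-1.05). With cluster 25 added Slc39a14 turned to -1.42, and 2 of 8 were higher and 3 lower. In the lipid substrate list 1 of 8 was higher, the ligase Acsl1 (1.19), and 1 lower, the polyamine enzyme Sat1 (-1.63), with a median of -0.09. In the list of defense apart from Gpx4, 2 of 4 were higher, the glutathione transferases Mgst1 (2.71) and Gstp1 (1.12), and 0 lower (median 0.57). With cluster 25 added, each of these lists had 1 higher and 1 lower, of 8 and 6 measured. The 2 measured regulators gave 0 higher and 0 lower, but with cluster 25 added 6 were measured and 4 of them lower (median -1.22), the 1 measured ATF4 target, Cth, was lower, and the 1 measured transcript of the ferroptosis marker list was Slc7a11 itself. All 3 measured genes of the dissociation stress list were lower in hKO, with Egr1 at -2.69, and Egr1 stood at 189 CPM in the 117 WT cells, 118 in WT cluster 21, 25.1 in hKO cluster 22 and 9.34 in hKO cluster 9. With cluster 25 added all 6 measured genes of that list were lower. The part of tissue dissociation in the members' values was not tested.

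In macrophage-like cells 1 gene of the iron list was lower, the heme oxygenase Hmox1 (579 CPM for WT against 282 for hKO, log2 -1.04), which also stands in the NRF2 and ferroptosis marker lists. Hmox1 was among the leading genes of cluster 8 (768 WT and 84 hKO cells), and within single clusters its ratio was -0.40 in cluster 3, -0.67 in cluster 8 and -0.79 in cluster 17, short of the rule in each. The heat shock gene Hspa1b of the dissociation list was higher (37.4 and 120.0 CPM, log2 1.68), and its ratio was 1.36 within cluster 3. The other lists had 0 genes past the rule there, where 4.04% of measured genes were. In endothelial-like cells the NRF2 list had 2 of 4 higher, Ephx1 (1.57) and the glutathione transferase Gstm1 (1.13). The iron list had 1 of 5 lower, Slc40a1 (-1.004), where 6.12% of measured genes passed. In hKO, hepatocyte-like cells pooled with the unnamed hepatocyte and cholangiocyte cluster held 589 CPM of Ephx1 and 2766 of Gstm1. Endothelial-like cluster 5 of hKO held 38.2 and 102 CPM. In WT, Ephx1 in the main hepatocyte-like cluster was near the 15.6 CPM of endothelial-like cluster 5. The part of hepatocyte RNA in the Ephx1 and Gstm1 ratios was not tested. The endothelial-like clusters also differed in their make-up. Within cluster 5 (998 WT and 292 hKO cells) the ratios of Ephx1, Gstm1 and Slc40a1 were 1.29, 1.05 and -0.61.

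The genes most like each member were sought over 22 class and library sums, by Pearson correlation of log2(CPM + 10) over 7277 genes, as a description of sums that share libraries, depth and free RNA. Slc7a11 was most like Sgms2 (r 0.95), Mirt2 (0.93) and Dhrs9 (0.91), and Slc3a2 was most like Scarb2 (0.87), Tmem87b (0.84) and Cpeb4 (0.83). Gpx4 was most like Ugp2 (0.95), Cox19 (0.95) and the glutathione synthetase Gss (0.94), Acsl4 like Ppia (0.93), Tomm20 (0.91) and BC031181 (0.91), and Lpcat3 like Slc38a10 (0.89), Scamp3 (0.87) and Eif4g1 (0.86). Aifm2 was most like Errfi1, Acaa2 and Selenbp1 (0.90 each), Por like Furin (0.86), Pgd (0.84) and Tmbim6 (0.80), and Ncoa4 like Rnf10 (0.80), Slc25a51 (0.79) and Ube2l6 (0.77). Among the members themselves the highest values were 0.79 for Slc7a11 with Por and 0.78 for Gpx4 with Aifm2, while the 2 chains of the cystine importer, Slc7a11 and Slc3a2, gave 0.22.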

How the data were processed

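The authors deposited whole-number UMI counts for each gene in each barcode, made with Cell Ranger 7.1.0 per the file headers. The other columns, deposited beside them, hold gene and barcode names. R 3.0, Seurat 3 and build mm9 also appear in the submitters' processing notes. Barcodes with at least 200 genes, 500 UMIs and at most 25% mitochondrial UMIs were kept. Doublets were removed with Scrublet in scanpy 1.11.5, by its own threshold in WT (3.54%) and, where that marked 0.0262% in hKO, by the top 9.16% of scores. Both libraries were clustered together without integration (2000 variable genes, 30 components, 15 neighbors, Leiden resolution 1.0). Clusters were named from fixed markers with at least 3 raised, and left unnamed where markers of an unrelated type were raised or led. UMIs were summed per class and library. In simulated counts with 200 genes changed by more than the rule requires, the ratio rule recovered 97.5% of them in hepatocyte-like cells. The simulation held counting error only, with no differences between cells, clusters or mice, so it does not bear on those. Named genes are all 8 members, up to 4 genes of largest ratio per list, and the 3 most like each member. Genes named in comparisons by group of cells were taken from these. The members and lists were chosen with earlier results of these data known. Alternatives covered cell limits, doublets, clustering, pooling of cluster 25, scaling, free RNA and the CPM floor. Replicates of a group were not available for a check.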

Additional observations from a re-analysis of the deposited data

Results flagged for a closer look

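Barcodes over the mitochondrial limit that had at least 200 genes (2212 in WT and 6613 in hKO) entered no comparison, yet all 8 genes were seen in them above the 3 UMIs that a count of 0 allows. In WT they held 34.8 CPM of Slc7a11, 38.5 of Slc3a2, 337 of Gpx4, 66.1 of Acsl4, 30.8 of Lpcat3, 5.27 of Aifm2, 35.7 of Por and 47.0 of Ncoa4. In hKO they held 107.7 CPM of Slc7a11, 40.6 of Slc3a2, 466 of Gpx4, 42.8 of Acsl4, 34.5 of Lpcat3, 4.01 of Aifm2, 85.8 of Por and 33.6 of Ncoa4. Slc7a11 had 1021 UMIs in these hKO barcodes, more than the 716 in the kept hepatocyte-like cells.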

How the results depend on the processing

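The count of 5 gene and class pairs past the rule became 1 with cluster 25 pooled into the hepatocyte-like class, 8 with free hepatocyte RNA subtracted, 9 with a floor of 20 CPM and 14 with no floor. The 1556 hepatocyte-like genes past it became 2738 and 3814 under those floors. The main counts were 5 of 47 measured pairs and 51.5% of 3020 measured genes. Lower floors also admit more pairs and genes, so these counts alone do not show a larger share. Pooling turned the Lpcat3 ratio in hepatocyte-like cells from 2.35 to -0.63. The share of higher genes among those past the rule, 38.4%, was 65.4% with median scaling, 20.02% with pooling and 53.4% without cluster 9, a setting chosen after seeing the data that left Slc3a2 under 50 CPM. Of 654 alternative values of the 47 measured ratios, 592 stayed within their main interval and 61 moved outside it, and 1 ratio past the rule, that of Lpcat3, changed sign. Calls were lost in 6 and gained in 8. Among ratios short of the rule 47 values changed sign. Of the 8 pairs after subtraction, Gpx4 in B-like and erythroid-like cells had no hKO UMI left, so these 2 are no measured difference. The other 6 were the 5 above and Gpx4 in NK or innate lymphoid-like cells (-1.17), where the hKO part subtracted may be overstated. Slc7a11 in hepatocyte-like cells was 4.55 with the mitochondrial limit at 10%, and 5.19 with at least 500 genes and 1000 UMIs. Ratios within single clusters were also chosen after seeing the data. No paired analysis was possible because each group has 1 library. Leaving out a replicate was not possible for the same reason. Counts of 1 to 11 WT UMIs limit the ratios of Slc7a11, Slc3a2, Por and Lpcat3 in hepatocyte-like cells.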
